A study of Homo sapiens with 25 samples.

Results

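The RNAs recovered with the RQ mutant of IGF2BP1 were compared with those recovered with wild-type IGF2BP1 in cells stressed with arsenite. The comparison took every RNA immunoprecipitation (RIP-Seq) library labelled RQ and arsenite, which gave 2 libraries, and every library labelled wild-type mCherry-IGF2BP1 and arsenite, which gave 3, so that 5 of the 25 RIP libraries entered it. All 5 came from HCT116 cells, a human colorectal carcinoma line, with the genotype IGF2BP2 KO, IGF2BP3 KO and Tet-OsTIR1-PURO and with an mCherry-tagged IGF2BP1 delivered by lentivirus, treated with 500 µM sodium arsenite for 2 h. The control libraries, 3 of RQ and 3 of wild-type, came from the same lines given PBS. The S181E and Y396E mutants had 6 arsenite libraries in all, and parental HCT116 cells, which carry neither the tag nor the knockouts, had 1 arsenite library that measures RNA held by the beads alone. The methods describe each line as a population sorted in a narrow mCherry gate and each replicate as a dish plated and grown on its own, so p-values measure the spread between dishes of 1 line.

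IGF2BP1 is an RNA-binding protein with RRM and KH domains joined by disordered linkers. It binds many mRNAs, affects their stability, transport and translation, and moves with them into stress granules when arsenite halts translation. Arsenite also activates the integrated stress response, in which phosphorylation of eIF2α lowers general translation while the transcription factor ATF4 is made and switches on genes for amino acid transport and synthesis. The RQ mutant replaces arginines of an RGG motif, a kind of sequence that can contact RNA, and the comparison asks what that motif contributes to the RNAs recovered.

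The mutant carries 4 substitutions, R167Q, R168Q, R174Q and R178Q, with residues counted from the first methionine. In the reference gene these codons lie in exon 6 of the canonical transcript, in coding sequence, at chr17:49038265-49038300 of hg38 on the plus strand. The stretch from codon 167 to codon 178 is shown so that the spacing of the changed residues can be seen, with the 4 arginine codons in capitals. It is the genome's sequence, and the lentiviral construct's own sequence was not used here.
IGF2BP1 codons 167 to 178: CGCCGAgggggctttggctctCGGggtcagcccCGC

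Total counts in the 5 libraries ranged from 29414260 to 46914852, and the parental arsenite library held 18942497. Levels are given as CPM of protein-coding genes, that is, counts scaled to a common library total, with TMM, and 8734 protein-coding genes were tested. The log2 levels of the 5 libraries correlated at 0.978 to 0.993 across genes, which are not independent replicates. Reads of the epithelial markers were present for 8 of 8 genes, with a summed level of 1885 to 1950 CPM in the wild-type libraries and 2128 to 2570 CPM in the RQ libraries. Of 12 markers of fibroblasts, blood cells, endothelium and neurons, 1 exceeded 1 CPM in any of the 5 libraries, COL1A1, at 8.92 to 11.9 CPM.

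The RNA of the bait itself was higher in the RQ libraries. IGF2BP1 stood at 40.6, 42.4 and 37.2 CPM in the wild-type libraries and at 81.7 and 79.6 CPM in the RQ libraries. The groups did not overlap and the RQ libraries lay close together. The log2 fold change was 1.02 ± 0.13 (SE), with an adjusted p of 9.5e-05 in edgeR's quasi-likelihood test. The parental library held 0 reads of the gene, so its level in the S181E and Y396E libraries was at least 360-fold higher than the parental level, taking 3 counts as the floor. Gene counts alone do not separate reads of the transgene from those of the cell's own gene, but the paper states that HCT116 cells lack IGF2BP1 expression. For the bait the ratio is therefore no measure of enrichment over the beads. The part of the bait's RNA level in the other differences was not tested. IGF2BP2, labelled as knocked out, stood at 184, 174 and 190 CPM in the wild-type libraries and at a mean of 180.0 ± 1.5 CPM (SD, n = 2) in the RQ libraries, inside the wild-type range. IGF2BP3 stood at 147 to 162 CPM and at 148 and 151 CPM. The mean of the 5 libraries over the parental arsenite library was 1.25 for IGF2BP2 and 1.12 for IGF2BP3, and a read count does not test for the protein.

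With RQ, 19 transcripts were called lower and 25 higher, by an adjusted p under 0.05 in edgeR's quasi-likelihood test and a change of over 20%. That is 0.218% and 0.286% of the genes tested. The calls rested in part on single libraries. They came to 4 lower and 18 higher without RQ replicate 1, to 0 lower and 8 higher without RQ replicate 2, and to 6 or 7 lower and 15 to 17 higher without any one of the 3 wild-type libraries. Single genes were followed in 16 other settings, none of which left out a control library. The 8 transcripts that stayed called in all 16 were TRIB3, SESN2, SLC7A11, IGF2BP1, PSAT1, SLC3A2, STC2 and IER3. Of the 19 lower transcripts 0 did so. RIP levels follow both the amount of an RNA in the cell and its association with the bait, and these cannot be told apart here.

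Most of the transcripts called lower were RNAs well above the bead background. Enrichment was taken as the mean CPM of the 6 S181E and Y396E arsenite libraries over the parental arsenite library, so that no library of the comparison chose it. By this measure 14 of the 19 lower transcripts were at least 4-fold enriched, against 617 of all 8734 genes tested. The median ratio of the 19 was 6.68 and the range 2.11 to 34.2, against a median of 1.14 over all genes tested. They were also abundant, with a median of 314 CPM over the 5 libraries. That median was 43.5 CPM for all genes tested and 89.7 CPM for the genes at least 4-fold enriched. The part of abundance in the calls was not tested. Of the 25 higher transcripts, 23 were under 2-fold, as were 6733 of the 8734 genes tested. The median of the higher transcripts was 0.883. The 1 above 4-fold was IGF2BP1, the bait, which had 0 reads in the parental library.

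R3HDM1, which encodes an R3H domain protein, was the most enriched of the lower transcripts. It fell from 2193, 2223 and 2335 CPM with wild-type to 1395 and 1215 CPM with RQ. Both RQ libraries lay far below the wild-type ones, and the log2 fold change was -0.78 ± 0.15 (SE; adjusted p = 0.0094, edgeR). HS2ST1, a sulfotransferase of heparan sulfate synthesis, stood at 425, 404 and 416 CPM with wild-type and at 265 and 210 CPM with RQ, a log2 fold change of -0.80 ± 0.16 (adjusted p = 0.017, edgeR). PROSER1 stood at 1197, 1224 and 1259 CPM against 823 and 661 CPM. For each of these genes RQ replicate 2 was the lower of the pair.

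TAB2, an adaptor of the TAK1 kinase, stood at 1121, 1136 and 1100 CPM with wild-type and at 769 and 687 CPM with RQ, and MYD88, the adaptor of Toll-like receptors, at 153, 147 and 147 CPM against 105 and 96.1 CPM. Their log2 fold changes were -0.61 ± 0.11 and -0.56 ± 0.12 (SE). VPS37A, a subunit of the ESCRT-I complex, stood at 328, 301 and 312 CPM against 215 and 182 CPM. RAB7A, the GTPase of late endosomes, stood at 2106, 2270 and 2093 CPM against 1496 and 1401 CPM, a log2 fold change of -0.57 ± 0.12 (adjusted p = 0.029, edgeR), and its fold over the parental level was 10.7.

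The ubiquitin-conjugating enzymes UBE2D2 and UBE2D3 both fell, by 0.46 and 0.47 on the log2 scale, and so did CNOT4, a ubiquitin ligase tied to the CCR4-NOT complex, by 0.55. CNOT4 stood at 377, 333 and 373 CPM with wild-type and at 260 and 229 CPM with RQ. NREP stood at 124, 127 and 109 CPM against 83.9 and 74.3 CPM, and NFU1, which helps build iron-sulfur clusters in mitochondria, at 99.9, 84.0 and 98.9 CPM against 66.4 and 61.5 CPM. RANBP9, a scaffold protein, stood at 426, 429 and 426 CPM against 309 and 271 CPM. The groups did not overlap for any of these, as for all 19 transcripts called lower. Both RQ libraries lay below all wild-type ones for 23.1% of all genes tested. The remaining lower transcripts were KLHL36, MEIS3, PIAS2, PITPNB, ANKRD17 and NFATC3, with log2 fold changes from -0.52 to -0.42.

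**Figure D1:**
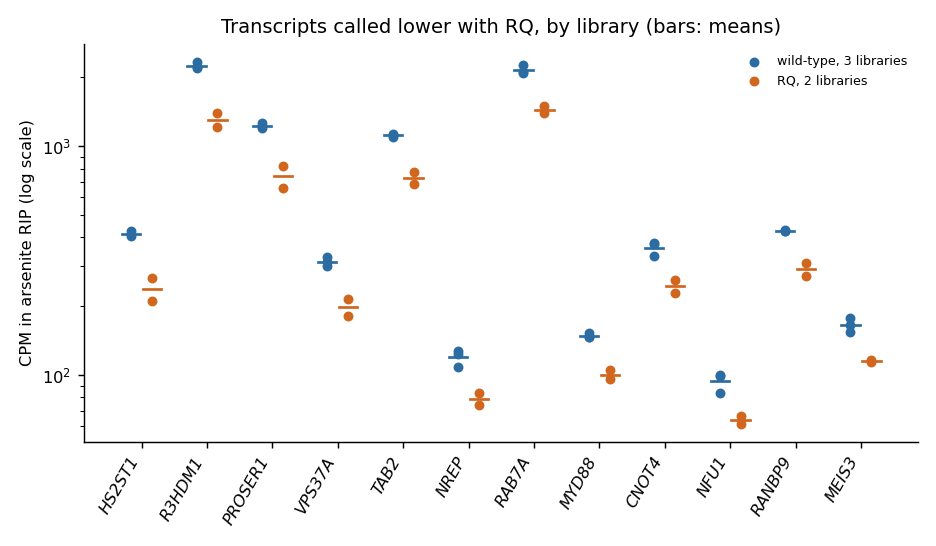
CPM (log scale) in each arsenite library for the 12 transcripts with the lowest log2 fold changes among those called lower. Points are libraries, 3 of wild-type (blue) and 2 of RQ (orange), and bars are group means. The RQ points sit below the wild-type points for all 12, as for R3HDM1, at 1395 and 1215 CPM against 2193 to 2335 CPM.

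Across all genes tested the RQ difference moved down with enrichment. By that ratio, the median log2 fold change was 0.03 in the 3744 genes below the parental level, -0.07 in the 1384 genes at 2- to 4-fold, -0.14 in the 427 genes at 4- to 8-fold and -0.22 in the 190 genes at 8-fold and over. Over the 617 genes at least 4-fold enriched it was -0.15, against -0.01 for all genes tested, and 76.8% of them lay below 0. Taken for each RQ library against the wild-type mean, the median of the 617 genes had an SD of 0.0866 (n = 2). Genes measured in the same libraries are not independent of each other. Both RQ libraries lay below all wild-type libraries for 48.8% of the 617 genes, against 23.1% of all genes tested, and above them for 7.94%, against 18.9%. The median of the 617 genes stayed between -0.23 and -0.07 under the alternatives in which it was followed. The control libraries gave the same measure as -0.12.

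**Figure D2:**
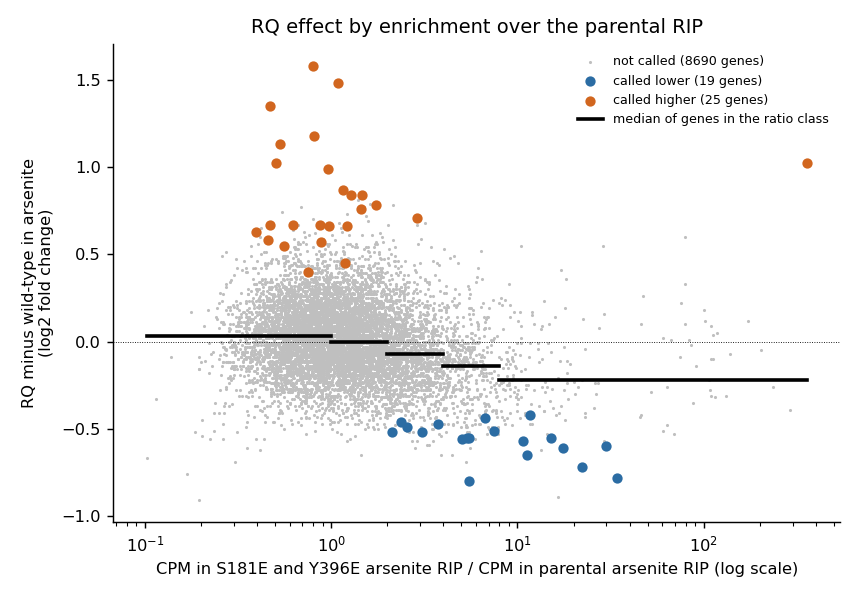
Log2 fold change of RQ over wild-type in arsenite (vertical axis) against the ratio of CPM in the S181E and Y396E arsenite libraries to CPM in the parental arsenite library (horizontal axis, log scale), with 1 point a gene. Black bars are the median of the genes in each ratio class, from 0.03 below the parental level to -0.22 at 8-fold and over. The 19 transcripts called lower lie at ratios of 2.11 and above, and the 25 called higher lie mostly near 1, with IGF2BP1 at the right edge.

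The transcripts called higher included many genes of the integrated stress response. Of the 22 genes listed as ATF4 targets 17 were tested, and 9 were called higher and 0 lower, against 0.286% and 0.218% of all genes tested. The list's median log2 fold change was 0.67, against -0.01 for all genes tested, and RQ lay above wild-type without overlap for 15 of the 17, against 18.9% of all genes. In the control libraries 8 of the 17 were called higher, against 3.51% of all genes tested, and the list's median there was 0.39, against 0.03. The list's median ratio over the parental level was 0.812, and 0 of its members were 4-fold enriched. The list was drawn up with earlier results of these data known, so its counts are a description.

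TRIB3, a pseudokinase that feeds back on ATF4, stood at 68.2, 74.1 and 75.8 CPM with wild-type and at 183 and 219 CPM with RQ. Both RQ libraries were far above the wild-type range, and the log2 fold change was 1.48 ± 0.11 (SE; adjusted p = 2.8e-08, edgeR). PCK2, the mitochondrial PEP carboxykinase, stood at 19.8, 29.4 and 26.2 CPM against 62.8 and 86.6 CPM, a log2 fold change of 1.58 ± 0.29. DDIT4, an inhibitor of mTORC1 signalling, stood at 30.2, 45.2 and 43.5 CPM against 82.6 and 118 CPM. The wild-type and RQ libraries each spread widely for PCK2 and DDIT4, and neither was called without RQ replicate 2. SESN2, which links leucine levels to mTORC1, stood at 64.6, 70.1 and 73.0 CPM against 144 and 169 CPM, a log2 fold change of 1.18 ± 0.14 (adjusted p = 4e-05, edgeR).

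SLC7A11, the cystine and glutamate exchanger, stood at 41.8, 47.6 and 46.7 CPM with wild-type and at 90.9 and 91.7 CPM with RQ. Its partner SLC3A2, the heavy chain that it shares with SLC7A5, stood at 216, 237 and 238 CPM against 375 and 461 CPM. The log2 fold changes were 1.02 ± 0.13 for SLC7A11, 0.87 ± 0.10 for SLC3A2 and 0.66 ± 0.10 for SLC7A5 (SE). The glutamine transporter SLC1A5 stood at 374, 427 and 368 CPM against 603 and 786 CPM, a log2 fold change of 0.84 ± 0.14, and SLC38A2 rose by 0.58 ± 0.09. For SLC1A5, SLC7A5 and SLC38A2 the call was lost without RQ replicate 2.

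PSAT1, an enzyme of serine synthesis, stood at 111, 116 and 114 CPM with wild-type and at 203 and 246 CPM with RQ, a log2 fold change of 0.99 ± 0.13. PHGDH, the first enzyme of that pathway, stood at 40.1, 39.8 and 38.6 CPM against 55.7 and 75.5 CPM and missed the threshold (log2 fold change 0.74 ± 0.19, adjusted p = 0.11, edgeR). GDF15, a secreted stress protein, stood at 92.5, 94.7 and 103 CPM against 189 and 234 CPM, and STC2 at 72.9, 81.2 and 85.6 CPM against 139 and 146 CPM. VEGFA, the endothelial growth factor, rose by 0.57 ± 0.11. ATF4 itself stood at 107, 114 and 124 CPM against 139 and 141 CPM (log2 fold change 0.29 ± 0.13, adjusted p = 0.46, edgeR). The other higher transcripts were IER3, an early response gene, the dual-specificity phosphatase DUSP6, SLC22A18, MRPL57, GOT1, SARS1, CLDN4, ACSL5, SDC4, WDR1 and PPP1R15B, with log2 fold changes from 0.40 to 0.78. SLC22A18 stood at 42.2, 40.2 and 33.9 CPM against 63.1 and 69.8 CPM.

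**Figure D3:**
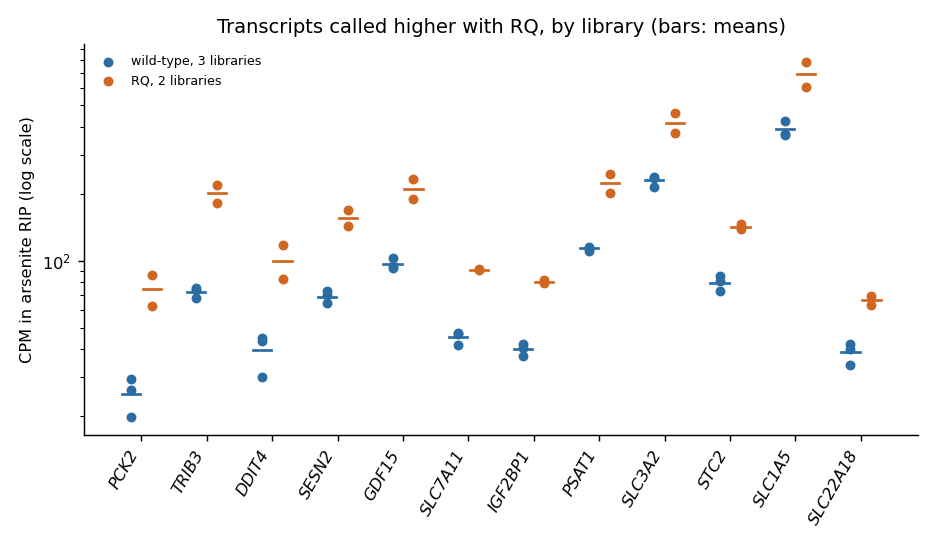
CPM (log scale) in each arsenite library for the 12 transcripts with the highest log2 fold changes among those called higher. Points are libraries, 3 of wild-type (blue) and 2 of RQ (orange), and bars are group means. The RQ points sit above the wild-type points for all 12, as for TRIB3, at 183 and 219 CPM against 68.2 to 75.8 CPM.

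ATF4 with its C/EBP partners binds a composite element, searched here as TGATGNAA on both strands of the 300 bases around each start held in RefSeq's promoters of GRCh38.p14, where a gene can have several starts and was counted if any held it. It was present for 4 of the 20 higher transcripts with a promoter in that set and for 1 of 18 lower ones, against 4.46% of all 27305 genes with a promoter and 2.52% of the genes tested. The windows are shown for GOT1 and PPP1R15B, both called higher, whose match lies before the start of the annotated gene, with the match in capitals and each read on the strand of the match. They lie at chr10:99430807-99430830 (plus strand) and chr1:204412029-204412052 (minus strand). The match of SLC1A5 lies inside the annotated gene, before an alternative start, and that of SLC3A2 lies after a start. SLC3A2 was on the list of ATF4 targets, while GOT1, PPP1R15B and SLC1A5 were not. Among the 19 listed ATF4 targets with a promoter, tested or not, 5 held a match.
GOT1: gccgagaaTGATGCAAccaatgca
PPP1R15B: gccccggcTGATGCAAcctcacgc
A match describes letters in these windows and nothing of binding in these cells.

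The other lists held few calls, but so did the genes tested as a whole, at 0.218% lower and 0.286% higher. Among the 19 tested NRF2 targets and metallothioneins, SLC7A11 was the 1 called, and the median was 0.20. Of 77 cytosolic ribosomal protein mRNAs 0 were called, although the median was 0.22 and both RQ libraries lay above all wild-type libraries for 43 of them, against 18.9% of all genes tested. The heat shock response list, with 19 tested, held 0 calls and a median of 0.03. HSPA8, a constitutive chaperone, stood at 861, 888 and 881 CPM with wild-type and at 865 and 897 CPM with RQ. Of 20 aminoacyl-tRNA synthetases 1 was called higher, SARS1. The 8 epithelial markers had a median of 0.38, with CLDN4 the 1 called, and their summed level, given above, was higher in the RQ libraries. The part of that shift in the other differences was not tested.

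Among mRNAs known as IGF2BP1 targets, 15 were tested and 0 were called, where 0.218% of all genes tested were called lower and 0.286% higher. A count of 0 in so short a list therefore says little. Both RQ libraries lay below all wild-type libraries for 6 of the 15, against 23.1% of all genes tested, and above them for 1, against 18.9%. HMGA1, a chromatin protein, stood at 27459, 25923 and 25929 CPM with wild-type and at 24335 and 23995 CPM with RQ, a log2 fold change of -0.12 ± 0.13. CD44, a cell adhesion receptor, and ACTB had log2 fold changes of -0.10 ± 0.12 and 0.12 ± 0.17, and for both the groups overlapped. PABPC1, the cytoplasmic poly(A)-binding protein and a marker of stress granules, stood at 29381, 27496 and 28788 CPM against 21682 and 19647 CPM. Its groups did not overlap, but it was not called (log2 fold change -0.46 ± 0.13, adjusted p = 0.19, edgeR). The call depended on the model, with an adjusted p of 0.0045 in DESeq2 and of 0.00037 in edgeR with only the 5 arsenite libraries. The range was 0.00037 to 1 over the alternatives that followed single genes. Of 25 mRNAs for stress granule core proteins 0 were called, and the median was -0.08. Both RQ libraries lay below all wild-type libraries for 11 of the 25, against 23.1% of all genes tested, and above them for 3, against 18.9%.

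Of the genes that the study singled out, 7 were tested, and 0 were called in arsenite with all mCherry groups in edgeR's model. That model called 0.218% of all genes tested lower and 0.286% higher. HMGA2 stood at 1671, 1433 and 1610 CPM with wild-type and at 1848 and 1568 CPM with RQ, so the groups overlapped. PHC3, a Polycomb protein, stood at 556, 570 and 577 CPM against 450 and 406 CPM, with a log2 fold change of -0.40 ± 0.10 (adjusted p = 0.11, edgeR). PHC3 too passed in DESeq2 (adjusted p = 0.011) and in edgeR with only the 5 arsenite libraries (0.0013). Its range was 0.0013 to 1 over the alternatives that followed single genes. GARS1 had a log2 fold change of 0.01 ± 0.12, LIPA -0.11 ± 0.18, XBP1 0.37 ± 0.18 and MYC 0.31 ± 0.10. XBP1 and MYC passed with only the 5 arsenite libraries in edgeR's model (adjusted p = 0.018 and 0.017) and in no other alternative that followed single genes. CCDC127 was below the filter on low counts. The 13 mRNAs encoded in mitochondrial DNA, which had a median ratio over the parental level of 18.4, held 0 calls, and their median was -0.24. Both RQ libraries lay below all wild-type libraries for 8 of the 13, against 23.1% of all genes tested, and above them for 0, against 18.9%. MT-CO1 stood at 46499, 52723 and 47504 CPM against 40788 and 41373 CPM.

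The same comparison without arsenite shares no library with that in arsenite. There 247 transcripts were called lower and 307 higher with RQ, 2.83% and 3.51% of the genes tested, in 3 libraries against 3. Of the 44 transcripts called in arsenite, 30 were called the same way in control, 12 of the 19 lower and 18 of the 25 higher, and 0 the other way. TRIB3 had a log2 fold change of 1.30 ± 0.11 in control, SLC7A11 1.53 ± 0.12, PSAT1 1.40 ± 0.13 and IGF2BP1 0.74 ± 0.12. TAB2 had -0.75 ± 0.09 and R3HDM1 -0.49 ± 0.13. PABPC1 and PHC3, which missed the threshold in arsenite, were called lower in control, with log2 fold changes of -0.57 and -0.72.

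**Figure D4:**
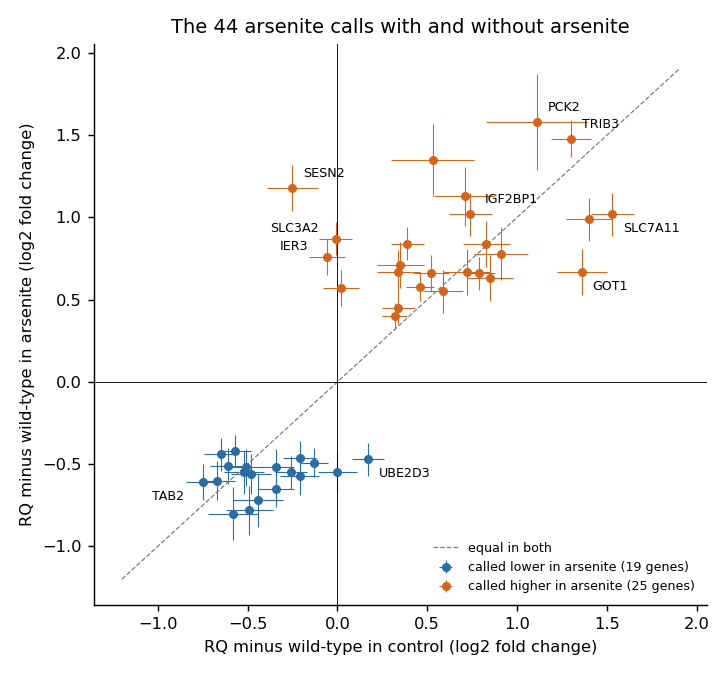
Log2 fold change of RQ over wild-type in arsenite (vertical axis) against that in control (horizontal axis) for the 44 transcripts called in arsenite, with SE as error bars and a dashed line where both are equal. Most points share a sign, 17 of 19 lower and 22 of 25 higher, and SESN2, SLC3A2 and IER3 lie near or left of 0 in control.

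The difference between arsenite and control was itself tested as an interaction, and 6 genes passed, 0.0687% of those tested. For 3 of them RQ was higher in arsenite and near wild-type in control. SESN2 stood at 19.7, 16.8 and 15.2 CPM with wild-type and at 16.4, 15.3 and 11.8 CPM with RQ in control, where the groups overlapped. SLC3A2 stood at 135, 145 and 151 CPM against 140, 155 and 134 CPM there, and IER3 at 1168, 1258 and 1076 CPM against 1146, 1175 and 1031 CPM. The interaction was 1.43 ± 0.20 for SESN2, 0.87 ± 0.14 for SLC3A2 and 0.82 ± 0.15 for IER3 (log2, SE). The number passing ranged from 0 to 31 when single libraries were left out, with 0 without RQ arsenite replicate 2 and 31 without wild-type control replicate 2. It was 23 and 14 without wild-type control replicates 1 and 3, 3 without RQ control replicate 1 or 3, and 1 or 2 without RQ arsenite replicate 1 or any one of the wild-type arsenite libraries.

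The S181E and Y396E comparisons in arsenite used the same wild-type libraries as the RQ comparison, so their values are set side by side with no count of agreement. For TRIB3 the log2 fold change was 1.48 with RQ, -0.17 with S181E and -0.38 with Y396E. For SESN2 it was 1.18, -0.61 and -0.67, and for SLC7A11 1.02, 0.55 and 0.35. A rise was thus not particular to RQ for every higher transcript. SARS1 had 0.67, 0.30 and 0.65, SLC1A5 0.84, 0.22 and 0.50, and IGF2BP1 1.02, 0.04 and 0.41. PHGDH, which was not called with RQ, had 0.74, 0.47 and 0.93. For TAB2 the log2 fold change was -0.61, -0.75 and -1.17, and for R3HDM1 -0.78, -0.61 and -1.03.

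The called groups also differed in their mRNAs, described here without a test on the canonical transcripts of GENCODE 44. The lower transcripts had a median GC content of 44.3% and a median 3′ UTR of 1736 bases, and the higher ones 52.7% and 1018 bases. All genes tested had 48.2% and 1534 bases, and genes at least 4-fold enriched had 47.6% and 1618 bases. Of the 19 lower transcripts 4 were above the median GC content of all genes tested, and of the 25 higher ones 19 were.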

How the data were processed

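RIP-Seq reads from an RFP-Trap pull-down, depleted of rRNA, were aligned by the authors to hg38 with STAR 2.7.11b and counted over exons with featureCounts of Subread 2.0.6 (strand setting 2, GENCODE 46). The deposited values are raw counts per gene, with reads that map to several places left out by default. Genes were named through GENCODE 44. Counts of protein-coding genes were scaled by TMM, genes with over 10 CPM in at least 11.5 of 23 mCherry libraries were kept, and edgeR 4.0.16 (R 4.3.3) fitted glmQLFit and glmQLFTest to all 8 mCherry groups, which share 1 estimate of the spread. A call needed a Benjamini-Hochberg adjusted p under 0.05 and a change of over 20%. Printed CPM use TMM over all 25 libraries. The parental library has no replicate. The script was tested on simulated data. Alternatives were DESeq2 1.42.0, other scalings, filters and models, a replicate block, and leaving out each library. Members, gene lists and the motif were chosen with earlier results of these data known. Text named all calls, gave values for the 10 lowest and 10 highest, and named members of lists by mean CPM and genes the study singled out. Total RNA libraries were not analysed here.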

Additional observations from a re-analysis of the deposited data

Results flagged for a closer look

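For 6 genes the RQ difference itself differed between arsenite and control, as an interaction in edgeR's quasi-likelihood fit. The interaction was 1.43 ± 0.20 (log2, SE) for SESN2 (adjusted p = 0.0015), 0.87 ± 0.14 for SLC3A2 (adjusted p = 0.0075) and 0.82 ± 0.15 for IER3 (adjusted p = 0.021). DSP, the desmosomal protein desmoplakin, had 1.01 ± 0.18 (adjusted p = 0.021), since it was lower with RQ in control (log2 fold change -1.12 ± 0.12) and close to wild-type in arsenite (-0.11 ± 0.14). FAM193B had 0.91 ± 0.16, with -0.68 in control and 0.23 in arsenite. MRPS10, a protein of the mitochondrial ribosome, had -0.78 ± 0.14, with 0.62 in control and -0.16 in arsenite.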

How the results depend on the processing

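The log2 fold change of IGF2BP1 (0.96 to 1.10) and the median of the enriched genes (-0.23 to -0.07) kept their direction wherever they were followed. The IGF2BP1 call held in the 16 settings that followed single genes. Counts of calls moved. Lower and higher transcripts numbered 10 and 33 with total counts as the scale (which moved the median of all genes from -0.01 to 0.07), 5 and 19 with TMM over the 3707 genes whose mean over all mCherry arsenite libraries did not exceed the parental arsenite library, 74 and 47 with DESeq2's Wald test, 0 and 13 with glmTreat, 548 and 474 with only the wild-type and RQ arsenite libraries in the model, and 1 and 10 with the wild-type and RQ libraries of both treatments. Leaving out single arsenite libraries gave 0 to 7 lower and 8 to 18 higher, at 842 genes with an unadjusted p under 0.05 in all 5 libraries and 219 without RQ arsenite replicate 2. Lower calls were 43.2% of all calls, 23.3% with total counts, 20.8% with TMM over those 3707 genes and 41.5% with DESeq2's size factors. Arsenite calls repeated in control fell to 15 with glmTreat and 16 with the wild-type and RQ libraries of both treatments, and were 23 to 31 with single libraries left out. Interaction calls numbered 71 with DESeq2, 1 with glmTreat, 10 with no filter, 11 with all biotypes, 0 with the wild-type and RQ libraries of both treatments (844 genes had an unadjusted p under 0.05 in the full model) and 0 to 31 with single libraries left out. The cause of these moves was not tested. Same-numbered RQ and wild-type arsenite libraries correlated at 0.15 and 0.22 in their deviations, over only 2 pairs. The deviations of 2 RQ libraries mirror each other, so these values cannot settle whether the numbers mark pairs. The main fit took none. With the replicate block 92 were lower and 62 higher, among them all 44 calls of the main fit, and 43 passed the interaction. The block also brought PABPC1 (log2 fold change -0.43, adjusted p = 0.018) and PHC3 (-0.37, adjusted p = 0.018) past the threshold. Depth limits RNAs under 10 CPM, which were not tested, and 2 RQ libraries limit the precision of every difference.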

Other observations

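With all biotypes in the model, 136 of the 7753 genes tested were not protein-coding, and edgeR called 0 of them, with 20 at an unadjusted p under 0.05. Of all 7753 genes, 19 were called lower and 24 higher, and 831 had an unadjusted p under 0.05. The signal recognition particle RNA RN7SL1 stood at 447, 518 and 498 CPM of all genes with wild-type and at 366 and 305 CPM with RQ (log2 fold change -0.54 ± 0.16, adjusted p = 0.17), and at 3177 CPM in the parental library. The nuclear RNA NEAT1 stood at 42.2, 55.6 and 38.5 CPM against 66.5 and 55.4 CPM, so the groups overlapped, and MALAT1 at 226, 320 and 239 CPM against 279 and 269 CPM. The mitochondrial rRNA MT-RNR2 stood at 199658, 207139 and 159636 CPM against 202488 and 181638 CPM, and at 32247 CPM in the parental library.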
